A study of Mus musculus with 11 samples.

Results

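The interferon-stimulated genes examined were 9 interferon response genes chosen by name: Isg15, Ifit1, Ifit3, Irf7, Irf1, Oasl2, Gbp2, Ifi27 and Bst2. All 9 were found among the 31053 genes of the count files, and all 9 passed the filter on low counts. They were followed over 4 times in 11 liver sections measured with Visium, a spatial assay in which polyadenylated RNA is captured on a grid of barcoded spots that each hold the RNA of several cells. The uninjured group (0 h) comprised 3 sections, numbered 2, 3 and 4. The injured groups, labelled POD, comprised 2 sections at 24 h (A, B), 2 at 36 h (A, B) and 4 at 48 h (A to D). Per the study's methods the injury was a single intraperitoneal dose of acetaminophen (APAP) after a fast, given to young adult C57BL/6JCrl mice, male unless stated otherwise, and no genetic change is stated for any group. The livers were snap-frozen. APAP overdose kills hepatocytes around the central vein. The labels do not give the mouse, slide or run of a section, and the methods give 1 mouse liver per time, so n counts sections, mouse and time cannot be told apart, and p-values measure the spread between sections, which may be technical.

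Interferons are cytokines released in response to viral nucleic acid, to nucleic acid from damaged cells and to immune activation. Type I interferons signal through the receptor Ifnar1/Ifnar2 and act on the interferon-stimulated response element of target genes, with Stat2 and Irf9 among the proteins that bind it, whereas interferon gamma signals through Ifngr1/Ifngr2 and acts on the gamma-activated sequence. In the liver, hepatocytes, Kupffer cells and endothelial cells all respond, and tonic signalling keeps many target genes detectable in healthy tissue.

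Both elements were searched for in the promoters of the members, and the windows shown are those that held a match. Of the members, 8 had an entry in the RefSeq promoter table (GRCm38.p6, 250 bases before to 50 after the gene start), and 5 of the 8 (62.5%) held a GAAA pair, that is GAAA, any 2 bases and GAAA again, the core of the interferon-stimulated response element, on either strand. This compared with 1079 of all 27025 genes (3.99%) and with 38 of 94 other interferon pathway genes (40.4%). TTCNNNGAA, the core of the gamma-activated sequence, which reads the same on both strands, lay in promoters of 2 of the 8 members (25%), of 9.55% of all genes and of 26.6% of the other pathway genes. The windows below run from 160 to 41 bases before the gene start, 5′ to 3′ on the strand of the gene, with bases that match either motif in capitals.
Isg15, chr4:156200859-156200978, minus strand: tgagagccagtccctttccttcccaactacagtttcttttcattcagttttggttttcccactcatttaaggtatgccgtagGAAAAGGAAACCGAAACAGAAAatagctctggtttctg
Ifit1, chr19:34640729-34640848, plus strand: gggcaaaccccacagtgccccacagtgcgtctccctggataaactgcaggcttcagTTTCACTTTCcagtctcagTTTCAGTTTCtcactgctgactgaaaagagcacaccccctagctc
Ifit3, chr19:34583369-34583488, plus strand: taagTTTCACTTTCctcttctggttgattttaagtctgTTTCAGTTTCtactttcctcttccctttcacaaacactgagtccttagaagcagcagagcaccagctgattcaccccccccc
Gbp2, chr3:142620503-142620622, plus strand: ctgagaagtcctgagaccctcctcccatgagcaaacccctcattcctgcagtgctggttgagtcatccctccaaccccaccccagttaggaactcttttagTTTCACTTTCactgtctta
Bst2, chr8:71537513-71537632, minus strand: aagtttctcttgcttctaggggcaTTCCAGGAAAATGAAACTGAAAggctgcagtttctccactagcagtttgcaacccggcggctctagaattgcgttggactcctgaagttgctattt
Irf1, chr11:53769854-53769973, plus strand: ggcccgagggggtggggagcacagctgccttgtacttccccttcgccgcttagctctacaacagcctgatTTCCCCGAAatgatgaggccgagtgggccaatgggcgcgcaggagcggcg
In Isg15 3 overlapping GAAA pairs began 78, 72 and 66 bases before the start. Ifit1 and Ifit3 each held 2 separate pairs on the opposite strand, where they read TTTC, and Gbp2 held 1. In Bst2, TTCNNNGAA overlapped the first of 2 GAAA pairs. Irf1 held TTCNNNGAA in the first of its 2 listed promoters. Neither motif was found in the promoter windows of Irf7 and Oasl2, and Ifi27 was not matched. These matches describe letters in a window and are not evidence of binding.

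The spots that passed the filter (at least 800 genes and at most 20% mitochondrial UMIs, where a UMI marks 1 captured molecule) numbered 1490 to 3466 per section and held 31292663 to 67045372 UMIs. The same 4992 barcodes stand in every section by design of the array. The median mitochondrial share per spot was 4.31% to 6.38% at 0 h and 1.69% to 4.56% over the injured ones, and its part in the results was not tested. Counts were summed per section and are given as CPM, UMIs per 1000000 after TMM scaling, which assumes that most genes did not change. Under total-count scaling the median gene lay 0.37, 0.49 and 0.54 above 0 h at 24 h, 36 h and 48 h on the log2 scale, against 0.05, 0.05 and 0.01 with TMM. Directions below are relative to TMM. In sums over tissue, fewer cells of a type and less RNA per cell cannot be told apart. Hepatocyte markers held 107268 to 111967 CPM at 0 h and 72425 to 88786 CPM at 48 h.

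The comparison of 24 h with 0 h asked whether interferon-stimulated genes differed early after APAP. No member rose, and 3 fell: Ifit1, Ifit3 and Gbp2. Of all 14821 genes tested, 41.7% were called, 23.1% higher and 18.6% lower, and the median log2 fold change was −0.10 over the 9 members and 0.05 over all genes. Ifit1 (chromosome 19, 34640871 to 34650009), whose protein binds viral RNA, was measured at 6.41, 7.31 and 10.5 CPM in the 0 h sections and at 3.46 and 1.75 CPM at 24 h. The 2 groups did not overlap, and the log2 fold change was −1.61 (SE 0.379, adjusted p = 0.00671). Ifit3 (chromosome 19, 34583531 to 34588731), a partner of Ifit1 in the same complex and its neighbour on the chromosome, stood at 13.4, 15.8 and 20.5 CPM at 0 h, against 7.25 and 3.13 CPM at 24 h. It fell by 1.65 on the log2 scale (SE 0.423, adjusted p = 0.0106), again without overlap. With 3 sections against 2, groups often separate by chance, and the share of all genes that did so was not counted. Gbp2 (chromosome 3, 142620602 to 142638008), a guanylate-binding GTPase that acts against intracellular pathogens and is strongly induced by interferon gamma, went from 4.75, 4.69 and 7.48 CPM to 2.22 and 1.79 CPM, a log2 fold change of −1.48 (SE 0.333, adjusted p = 0.00498). These 3 genes had few molecules at 24 h, with 216 UMIs of Ifit1, 435 of Ifit3 and 159 of Gbp2 over both sections.

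Section 24 h B carried much of this result. Without it Gbp2 was still called, but Ifit1 gave −1.22 (adjusted p = 0.0626) and Ifit3 −1.19 (adjusted p = 0.0843), and the section left at 24 h was then assumed to vary like those of the other groups. The other 6 members were not called. Isg15 (chromosome 4, 156199424 to 156200818), a ubiquitin-like modifier released and conjugated on interferon signalling, was measured at 43.6, 36.8 and 59.6 CPM at 0 h, against 60.0 and 43.9 CPM at 24 h. The sections overlapped, and the interval of the log2 difference ran from −0.62 to 0.94, so changes of up to that size in either direction were not resolved. Irf7 (chromosome 7, 141262706 to 141266481), a transcription factor that amplifies type I interferon production, had a 0 h mean of 57.0 ± 5.23 CPM (SD, n = 3) and a 24 h mean of 57.2 ± 0.165 CPM (SD, n = 2). Its log2 difference was 0.00, with an interval from −0.24 to 0.25. Over 17 alternative settings this difference ran from −0.07 to 0.33, and Irf7 was called in 1 of them.

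**Figure D1:**
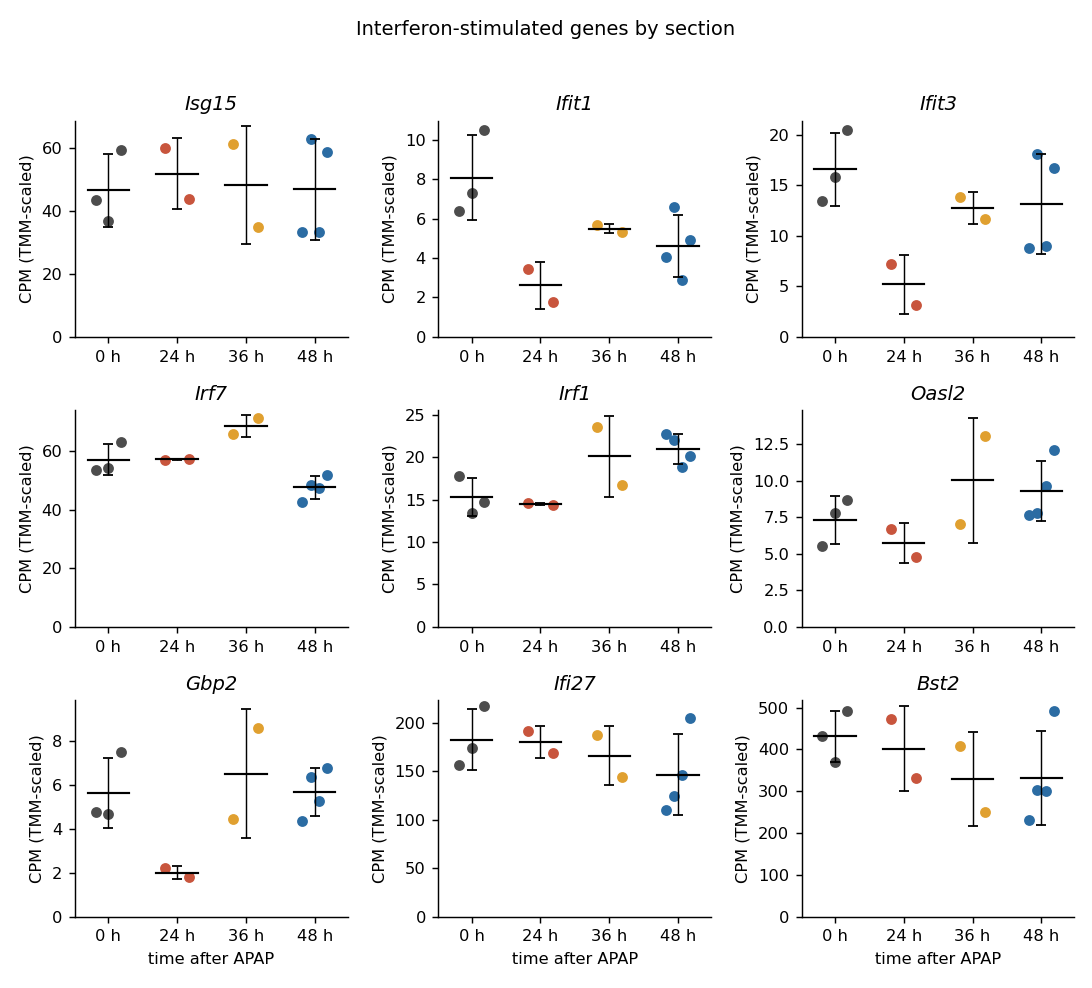
CPM of each member (y axis, from 0) in every section, by time after APAP (x axis). Points are sections, horizontal lines are means and bars are SDs (n = 3, 2, 2 and 4). Both 24 h sections lie below all 0 h sections for Ifit1, Ifit3 and Gbp2, whereas for Isg15 the 4 times overlap between 33.2 and 63.1 CPM.

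At 36 h no member was called against 0 h, where 29.2% of all genes tested were called (16.8% higher and 12.4% lower). At an unadjusted p under 0.05 there were 2, Irf1 with a log2 fold change of 0.40 (adjusted p = 0.0849) and Irf7 with 0.27 (adjusted p = 0.0954), and DESeq2 also called 0. Under total-count scaling 3 members were called. The levels of the 3 genes that had fallen at 24 h lay higher again at 36 h. Gbp2 stood at 4.43 and 8.59 CPM, with a section on each side of the 0 h mean of 5.64 CPM, and it rose against 24 h by 1.69 on the log2 scale (SE 0.356, adjusted p = 0.0139). It was the only member called between 24 h and 36 h, where 15.6% of genes were called (7.04% higher and 8.58% lower). Ifit3 was at 13.8 and 11.6 CPM and Ifit1 at 5.65 and 5.34 CPM. They differed from 24 h by 1.27 (adjusted p = 0.0791) and 1.05 (adjusted p = 0.0987) and did not pass the test. Their sections did not overlap with those at 24 h, which often happens by chance with 2 sections against 2. The rise of Gbp2 lost its call without 24 h A (1.86, adjusted p = 0.0670), without 24 h B (1.55, adjusted p = 0.0732) or without 36 h B (1.18, adjusted p = 0.0591).

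At 48 h 1 member was higher than at 0 h and 2 were lower, beside 44.2% of all genes called (23.3% higher and 20.9% lower). Irf1 (chromosome 11, 53770014 to 53778374), a transcription factor induced by interferon gamma and by other inflammatory cytokines, was measured at 17.7, 13.4 and 14.7 CPM at 0 h, against 22.7, 22.1, 18.8 and 20.1 CPM at 48 h. All 4 sections at 48 h lay above all 3 at 0 h, and the log2 fold change was 0.46 (SE 0.136, adjusted p = 0.0195). Ifit1 was at 4.05, 6.60, 2.90 and 4.91 CPM at 48 h, of which 1 section exceeded the lowest section at 0 h, and gave −0.81 (SE 0.290, adjusted p = 0.0436), but −0.28 (adjusted p = 0.408) under total-count scaling. Irf7 was at 42.7, 48.3, 47.3 and 51.9 CPM, below the 53.7 to 63.0 CPM of 0 h in every section, and gave −0.26 (SE 0.0938, adjusted p = 0.0420), but under total-count scaling its direction turned (0.27, adjusted p = 0.0262). How many of all genes separated the 0 h and 48 h sections as Irf1 and Irf7 did was not counted. The 3 calls of members at 48 h were not stable. Without 0 h section 3 or without 0 h section 4 none of the 3 remained. Irf7 was also lost without 0 h section 2, without either 24 h section and without 48 h A, B or C, at adjusted p-values up to 0.101, and Ifit1 without 36 h A and without 48 h A, C or D, at adjusted p-values up to 0.0941.

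Between 36 h and 48 h Irf7 was the only member called, where 3.05% of genes were (1.62% higher and 1.43% lower). It went from 65.9 and 71.2 CPM, the 2 highest sections of the series, to the values above, with a log2 fold change of −0.53 (SE 0.105, adjusted p = 0.0285). The size kept between −0.48 and −0.58 without any of the 36 h or 48 h sections, but the adjusted p exceeded 0.05 without 48 h C (0.0712), 48 h B (0.0698), 36 h A (0.0556) or 36 h B (0.0525), and likewise without 0 h section 2 (0.0516) or 3 (0.0550).

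Isg15, Oasl2, Ifi27 and Bst2 were called in none of the 5 comparisons. Isg15 averaged 46.7 ± 11.7, 52.0 ± 11.4, 48.3 ± 18.7 and 47.1 ± 16.1 CPM at the 4 times, and sections of 1 time differed by more than the times did. Oasl2 (chromosome 5, 114896936 to 114912234), a relative of the oligoadenylate synthetases, averaged 7.32 ± 1.63, 5.71 ± 1.35, 10.0 ± 4.26 and 9.29 ± 2.07 CPM. Ifi27 (chromosome 12, 103434211 to 103440239), an interferon-induced membrane protein, ran from 156 to 217 CPM at 0 h and from 110.2 to 205 CPM at 48 h. Bst2 (chromosome 8, 71534255 to 71537456), the virus-tethering protein tetherin, which also marks plasmacytoid dendritic cells, ran from 369.8 to 492 CPM at 0 h and from 231 to 491 CPM at 48 h. Their intervals at 48 h ran from −0.77 to 0.13 for Ifi27 and from −0.95 to 0.19 for Bst2 on the log2 scale.

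**Figure D2:**
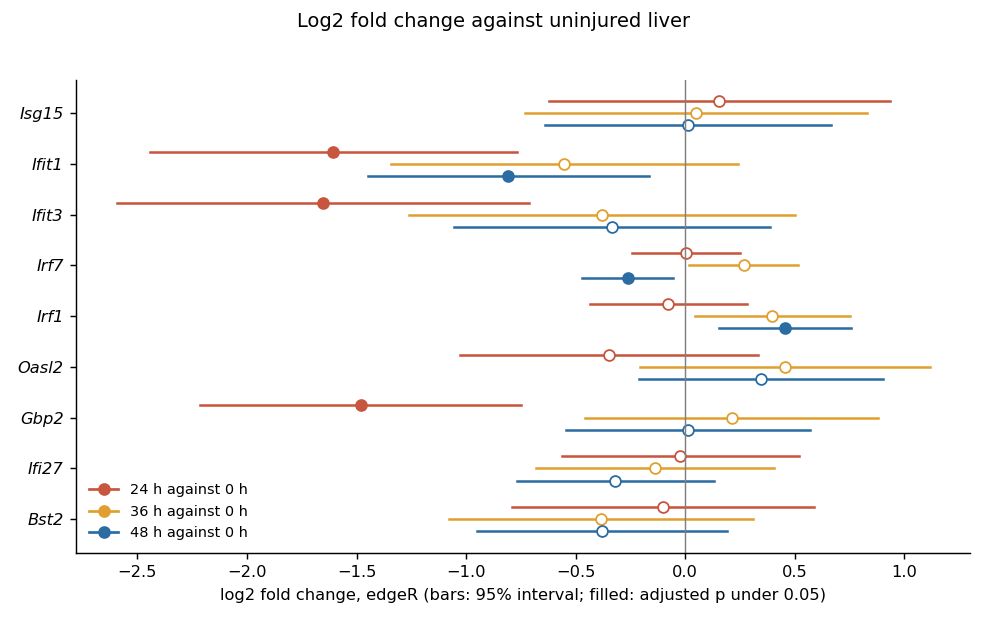
Log2 fold change (x axis) of each member (y axis) at 24 h, 36 h and 48 h against 0 h, from edgeR. Bars are 95% intervals and filled points have an adjusted p under 0.05. Filled points are Ifit1, Ifit3 and Gbp2 at 24 h, and Irf1, Ifit1 and Irf7 at 48 h, where Irf7 changes direction under total-count scaling.

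Over the 11 sections the members did not vary as a block. The log2 CPM of Ifit1 and Ifit3 ran together (Pearson r = 0.93, n = 11), as did that of Ifi27 and Bst2 (0.89) and of Ifit3 and Gbp2 (0.82), whereas Isg15 and Ifit1 gave 0.30. Across 9134 genes with a mean of at least 5 CPM, the pattern most like Isg15 was that of Chid1 (r = 0.901), followed by Tap1 (0.898), which carries peptides to major histocompatibility molecules, Hc, Rnf213 and Snd1. The genes most like Irf1 were Fyb2 (0.907), Mindy2, Slc16a12, Dclre1a and Adamts7 (0.880). The sections share their times and livers, so these values are descriptions. At 0 h, section 4 was the highest of the 3 for 8 of the 9 members, all but Irf1.

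The other genes of the pathway were taken from a list of 125 genes, of which 109 were tested at section level. The interferons themselves were hardly captured. Ifnb1, Ifna1, Ifna2, Ifna4, Ifna5, Ifne, Ifnl2 and Ifnl3 had 0 UMIs in all 11 sections, a count that allows up to 3 UMIs. Ifng, the gene of interferon gamma, had 6, 4, 1 and 9 UMIs at 0 h, 24 h, 36 h and 48 h. Ifnk, a type I interferon best known from skin, had 2, 2, 3 and 45 UMIs and was called higher at 48 h (adjusted p = 0.0475), on 19, 19, 6 and 1 UMIs in sections A to D.

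Of 6 receptor genes, Ifnar2 fell and Ifngr1 rose at each of the 3 times. Ifnar2, the ligand-binding chain for type I interferons, went from 106 to 116 CPM at 0 h to 60.4 to 82.5 CPM after injury, with log2 fold changes of −0.69, −0.77 and −0.64 (adjusted p = 0.0024, 0.00287 and 0.000942). The fall at 48 h was little larger than the 0.54 by which total-count scaling raised the median gene. Ifngr1, the ligand-binding chain for interferon gamma, went from 27.7 to 29.5 CPM to 36.1 to 62.8 CPM, with 0.66, 0.75 and 1.02 (adjusted p = 0.0095, 0.00861 and 0.000354). No injured section overlapped with the 0 h sections for either gene, but the share of all genes that separated in this way was not counted. Their partner chains Ifnar1 and Ifngr2 were called at none of these times. Of the other receptor genes, Il10rb rose at 24 h and 48 h (0.56 and 1.27, adjusted p = 0.0266 and 0.000136), and Ifnlr1, for lambda interferons, was called higher at all 3 times on 4, 23, 18 and 72 UMIs at the 4 times. Of 16 tested sensors and inducers, 6 were higher and 2 lower at 24 h, 3 and 0 at 36 h, and 6 and 2 at 48 h, which is 50%, 18.8% and 50% called beside 41.7%, 29.2% and 44.2% of all genes. Tlr4, the receptor for bacterial lipopolysaccharide, rose by 0.96 at 24 h and 1.56 at 48 h (adjusted p = 0.00854 and 0.000227), while the RNA sensors Ddx58 and Ifih1 fell at 24 h (−0.48 and −0.43). Of the signalling genes, Stat2 rose at 24 h (0.57, adjusted p = 0.00682) and fell by 0.62 from 24 h to 36 h (adjusted p = 0.0239), and Irf9 fell at 48 h (−0.48, adjusted p = 0.007, less than the 0.54 by which total-count scaling raised the median gene). Among the feedback inhibitors, Socs3, which damps cytokine receptors and is a classical target of interleukin 6, rose from 2.26 to 3.90 CPM at 0 h to 16.8 and 34.7 CPM at 24 h, a log2 fold change of 3.14 (adjusted p = 0.000187). Socs3 then fell by 2.04 to 36 h (adjusted p = 0.0137) and was still higher than at 0 h at 48 h (1.54, adjusted p = 0.00396). Usp18, which removes Isg15 from proteins, and Socs1 were called at no time.

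The 29 tested targets of interferon gamma and class I antigen presentation held 13 lower and 0 higher genes at 24 h, with a median log2 fold change of −0.78 against 0.05 over all genes. That is 44.8% of the list called, beside 41.7% of all genes, of which 18.6% were lower. Total-count scaling gave 9 lower and 2 higher. Without 24 h B 6 were lower, and without 0 h section 4 9 were lower, with 0 higher in both cases. The 13 were Gbp2b, Gbp5, Cxcl9, Gbp4, B2m, H2-K1, Tgtp2, Psmb9, Irgm1, Irgm2, Gbp3, H2-D1 and Psmb8, which comprise guanylate-binding and immunity-related GTPases, a T cell chemokine, class I molecules and immunoproteasome subunits. Gbp2b, a close relative of Gbp2, was measured at 3.72, 3.66 and 4.01 CPM at 0 h, against 0.215 and 0.160 CPM at 24 h, a log2 fold change of −4.30 (adjusted p = 0.000157). Cxcl9, a chemokine for activated T and NK cells, went from 12.4 to 34.7 CPM to 5.27 and 1.98 CPM (−2.49, adjusted p = 0.0152). H2-K1, a class I molecule, went from 1578 to 1733 CPM to 720 and 618 CPM (−1.29, adjusted p = 0.00016). Gbp3, another relative of Gbp2, fell by 0.81 at 24 h (adjusted p = 0.0394). At 36 h 4 of the 29 were lower and 1 was higher, and at 48 h 8 were lower and 0 higher (17.2% and 27.6% called, beside 29.2% and 44.2% of all genes), with Gbp2b at −2.67, Cxcl9 at −1.94 and H2-K1 at −1.14. The falls at 36 h included those of Gbp2b (−2.68), Ifi47 (−1.58, adjusted p = 0.0150), an immunity-related GTPase, and H2-K1 (−1.04, adjusted p = 0.0014). Under total-count scaling those splits became 4 lower and 5 higher at 36 h, and 3 lower and 7 higher at 48 h. Without 0 h section 4, 3 were lower at 48 h, and without 48 h A or B, 5 were.

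Among the cell type markers at 24 h, those of NK and T cells, the classical makers of interferon gamma, lay lower. The 4 NK cell and innate lymphoid markers summed to 2.13 to 3.25 CPM at 0 h and 0.702 to 1.61 CPM at 24 h, with 2 of 3 tested called lower. The 3 T cell markers summed to 2.38 to 3.36 CPM and 0.893 to 1.57 CPM, with 1 of 3 called lower. No marker of either list was at 0. Neutrophil markers moved the other way, from 1.98 to 7.88 CPM at 0 h to 38.4 to 136 CPM at 24 h. So did the 3 plasmacytoid dendritic cell markers, from 0.528 to 0.699 CPM to 2.11 to 3.40 CPM, with 1 of 3 called higher. The NK cell, T cell and plasmacytoid dendritic cell sums are low. Other lists held lower markers too. Of 5 Kupffer cell markers 3 were lower and 1 higher at 24 h, with a median log2 fold change of −0.82. Of 5 hepatocyte markers 3 were lower and 1 higher, with a median of −0.45. Over all genes 18.6% were lower and 23.1% higher. The part of any of these cell types in the falls of Gbp2 and the gamma targets was not tested.

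The 45 other tested type I targets were split, with 28.9%, 13.3% and 31.1% called at the 3 times, below the shares over all genes. At 24 h 9 fell and 4 rose (2 and 10 under total-count scaling), at 36 h 2 fell and 4 rose (1 and 20), and at 48 h 5 fell and 9 rose (1 and 27). Without 24 h B, 1 fell and 6 rose at 24 h. Ifit3b, a near copy of Ifit3, fell by 1.93 at 24 h (adjusted p = 0.00736), and reads may be shared between copies. Ifi27l2b, a relative of Ifi27, rose from 6.14 to 7.82 CPM at 0 h to 43.4 to 84.3 CPM over the injured sections, with log2 fold changes of 3.2, 2.97 and 3.13 (adjusted p = 2.61e-05, 0.000107 and 1.81e-05), while Ifi27 itself was called at none of these times. Ifi27l2a, also a relative, was higher at 48 h (1.06, adjusted p = 0.0474) at 89.9 to 266 CPM against 73.2 to 88.7 CPM. Oas1a, which makes the second messenger that activates RNase L, rose at all 3 times by 2.19, 1.62 and 1.05 (adjusted p = 0.000301, 0.00361 and 0.00771), and Oas1g rose at 24 h and 36 h by 1.43 and 1.51 (adjusted p = 0.0107 and 0.0138). Rsad2, the antiviral enzyme viperin, rose between 24 h and 36 h by 1.60 (adjusted p = 0.0417). So did Irf2 (1.22, adjusted p = 0.0118), a repressor of interferon targets, and Sp100 (0.78, adjusted p = 0.0366), a nuclear body protein, while Isg20 (−1.16, adjusted p = 0.0137), an RNA exonuclease, and Ticam1 (−0.79, adjusted p = 0.0326), the adaptor of Tlr3 and Tlr4, fell. Between 36 h and 48 h Il10rb (0.90, adjusted p = 0.0259) was the only pathway gene called. Oasl1 and Ifit1bl1, relatives of Oasl2 and Ifit1, were called in none of the comparisons with 0 h. Over all 109 genes the counts of higher and lower were 16 and 26 at 24 h, 10 and 7 at 36 h and 21 and 17 at 48 h, against 29 and 12, 45 and 5, and 60 and 4 under total-count scaling. The shares called of 38.5%, 15.6% and 34.9% stood beside 41.7%, 29.2% and 44.2% of all genes.

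The spots allow the same genes to be read by place. Spots were first ranked in each section by the study's 23 central and 12 portal genes. UMIs in the 25% most central and the 25% most portal spots were then summed and compared within sections. The paper reports that APAP disrupted hepatocyte zonation in mice, and these shares are fixed in every section. After injury, central and portal therefore name a rank in these genes and need not mark a position in the lobule. Whether they did was not tested. At 0 h Irf7 was the only member called (17.6% of 13480 genes tested were, 8.64% higher and 8.94% lower), lower in central spots. It stood at 44.5, 46.0 and 46.9 CPM in central and 56.1, 56.1 and 68.5 CPM in portal spots (log2 fold change −0.38, adjusted p = 2.38e-05). It was lower in central spots at 24 h and 36 h as well (−0.44 and −0.38), joined by Ifi27 (−0.39 and −0.38), and these 2 were the only members called, beside 23.7% of genes at 24 h (11.3% up, 12.5% down) and 12.1% at 36 h (4.29% up, 7.82% down). Under total-count scaling Irf7 gave −0.20 and −0.19 at 24 h and 36 h (adjusted p = 0.0689 and 0.0990) and Ifi27 −0.14 and −0.19 (adjusted p = 0.108 and 0.0562), which did not pass the test. Without 36 h A, Irf7 gave −0.26 (adjusted p = 0.239) and Ifi27 −0.19 (adjusted p = 0.25) at 36 h.

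At 48 h 7 members were called, beside 31.8% of genes (14.9% higher and 16.8% lower). Ifit1 (0.53, adjusted p = 0.0129), Ifit3 (0.48, adjusted p = 0.00505), Gbp2 (0.44, adjusted p = 0.0181) and Isg15 (0.38, adjusted p = 0.0210) were higher in central spots, and Irf7 (−0.17), Bst2 (−0.14) and Ifi27 (−0.21) lower, although under total-count scaling Irf7 and Bst2 turned to 0.038 and 0.066 and Ifi27 gave −0.01, without passing the test. Isg15 was at 37.0, 70.9, 35.9 and 60.9 CPM in central against 23.5, 53.2, 32.1 and 48.8 CPM in portal spots of sections A to D, higher in 4 of 4. Section 48 h B weighed most, since without it 3 members were called and Ifit1, Ifit3, Gbp2 and Isg15 gave 0.42, 0.29, 0.38 and 0.36 at adjusted p-values of 0.0630 to 0.121. Without 48 h A, 4 members were called, and Gbp2, Isg15 and Ifit1 were lost. Without 48 h D Gbp2 and Isg15 were lost (adjusted p = 0.0998 and 0.0604), without 48 h C Irf7 (adjusted p = 0.1), and without 0 h section 4 Isg15 (adjusted p = 0.0522).

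Spots poor in hepatocyte transcripts were taken next. In each section the 10% of spots with the lowest score of Alb, Ttr, Hp, Hnf4a and Apoa1 were set against the others, and none of the members is in that score. At 48 h Oasl2 was measured at 19.3, 17.0, 22.4 and 26.6 CPM in the hepatocyte-poor spots of sections A to D and at 6.44, 7.23, 8.81 and 11.4 CPM in the other spots. It was higher in 4 of 4 sections without overlap, by 1.35 on the log2 scale (SE 0.0935, adjusted p = 4e-16). The share of all genes without overlap was not counted. Gbp2 rose with it, from 4.17 to 6.56 CPM in the other spots to 7.92 to 14.0 CPM in the hepatocyte-poor ones (0.82, adjusted p = 8.32e-08), as did Ifit3 (0.48, adjusted p = 6.03e-05), Isg15 (0.27, adjusted p = 0.0316) and Irf7 (0.15, adjusted p = 0.0416). Ifi27 and Bst2 were lower, by −0.51 and −0.24, but under total-count scaling Bst2 was higher (0.22, adjusted p = 7.35e-05) and Ifi27 was not called (−0.051, adjusted p = 0.387). These 7 of 9 stood beside 63.7% of all 14572 genes called at 48 h, 33.1% higher and 30.5% lower, so the number called does not set the members apart. The calls of Oasl2, Gbp2 and Ifit3 held without any 1 section. Isg15 gave 0.11 (adjusted p = 0.169) without 48 h A, 0.27 (adjusted p = 0.120) without 48 h D and 0.24 (adjusted p = 0.0597) without 36 h A. Irf7 gave 0.08 (adjusted p = 0.345) without 48 h D and was also lost without 48 h A, without 36 h A, without either 24 h section and without 0 h section 2, at adjusted p-values of 0.0540 to 0.112.

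**Figure D3:**
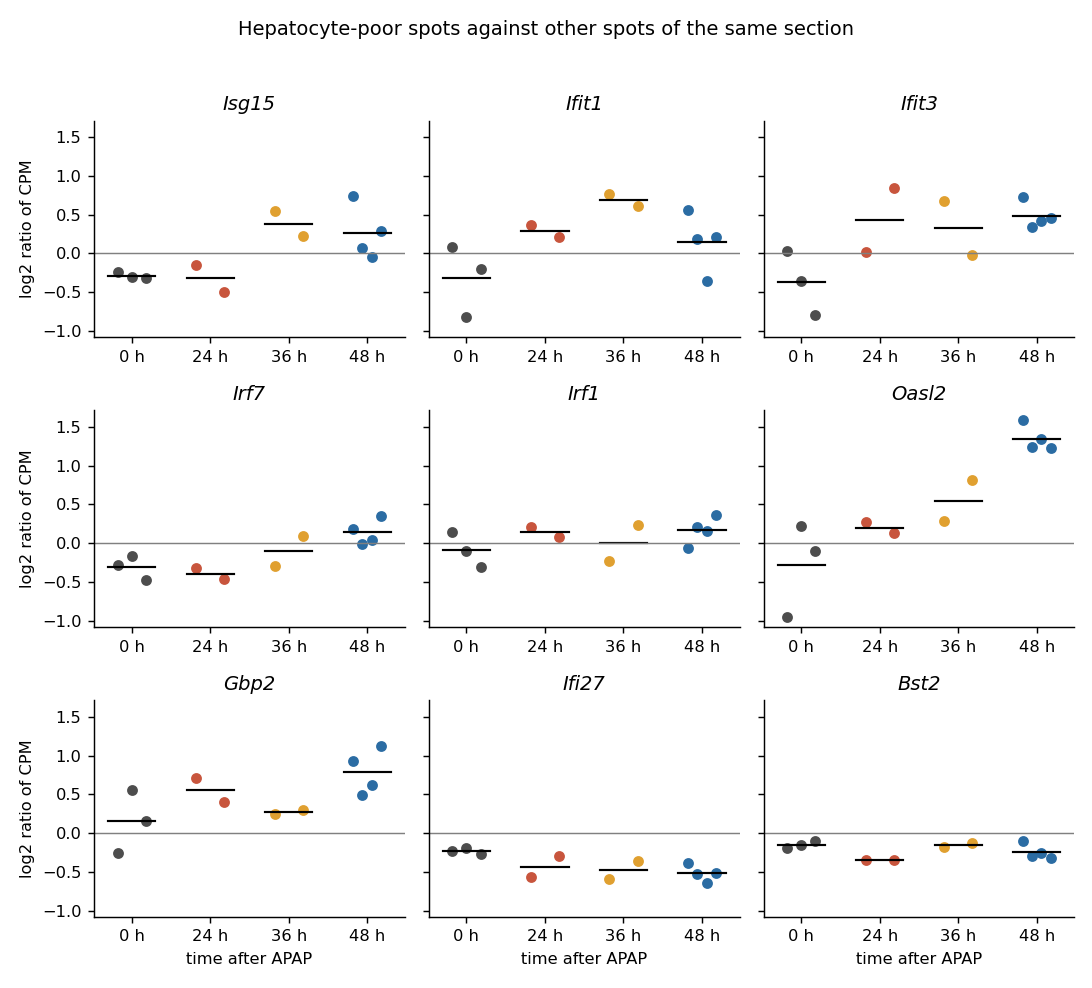
Log2 ratio of CPM in hepatocyte-poor against other spots (y axis) for each member, by time after APAP (x axis). Points are sections and lines are group means. Oasl2 lies between 1.23 and 1.59 in the 4 sections at 48 h, while Ifi27 and Bst2 lie below 0 in all 11 sections on this TMM scale, where Bst2 turns positive at 36 h and 48 h under total-count scaling.

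At 0 h none of the members was higher in such spots. Irf7 and Ifi27 were lower in them (−0.30 and −0.23, adjusted p = 0.0297 and 0.0294), beside 4.74% of genes called (1.35% higher and 3.39% lower). These 2 calls were lost on leaving out any 1 of the 3 sections, under total-count scaling and in the wider class of 20% of spots. At 24 h Irf7, Bst2 and Ifi27 were lower (−0.39, −0.34 and −0.44, beside 26.4% of genes called, 10.3% up and 16.1% down), and under total-count scaling the 3 gave −0.05, −0.00 and −0.10 without passing the test. Irf7 was lost without 24 h B (adjusted p = 0.0986) and Ifi27 without 24 h A (adjusted p = 0.0613). At 36 h Ifit1 and Oasl2 were higher (0.69 and 0.62, adjusted p = 0.0142 and 0.00511) and Ifi27 lower (−0.48, but −0.14 with adjusted p = 0.157 under total-count scaling), beside 28.4% of genes (12.7% higher and 15.7% lower). Oasl2 then rested on 36 h B, without which it gave 0.28 (adjusted p = 0.581), and Ifit1 was lost without either section (adjusted p = 0.223 and 0.0767). The difference between times was tested directly. The class is the lowest 10% of spots in every section, so at 0 h it need not hold the same kind of spot as at 48 h. The excess of Oasl2 in hepatocyte-poor spots was 1.47 larger at 48 h than at 0 h on the log2 scale (adjusted p = 4.3e-08), that of Ifit3 0.85 larger (adjusted p = 0.000133), that of Gbp2 0.62 (adjusted p = 0.0232) and that of Isg15 0.56 (adjusted p = 0.0214).

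Markers of other cell types were higher in the hepatocyte-poor spots of 48 h. All 4 mononuclear phagocyte, all 5 Kupffer cell and all 4 tested neutrophil markers were higher in them, as were 6 of 7 mesenchymal and 5 of 7 endothelial markers, with median log2 fold changes of 1.46, 0.94, 1.57, 1.53 and 0.70. Of the smaller lists, 2 of 3 plasmacytoid dendritic cell, 2 of 3 T cell, 2 of 3 B cell and 2 of 4 NK cell markers were higher. None of those lists held a lower marker, while of 4 cholangiocyte markers 1 was higher and 1 lower. Choosing spots for few hepatocyte transcripts itself favours spots with other cells. Of all genes, 33.1% were higher and 30.5% lower in the hepatocyte-poor spots at 48 h. Of these spots 55.7% to 62.0% were also among the 10% richest in phagocyte transcripts, against 9.84% to 12.6% at 0 h, 26.2% to 35.8% at 24 h and 38.0% to 43.8% at 36 h. Depth moved too. Hepatocyte-poor spots had medians of 14720 to 20780 UMIs at 0 h against 21432.5 to 31248 in the other spots, and 21106 to 26755 against 17380 to 28133 at 48 h. The part of cell makeup in the excess of Oasl2 was not tested. Of 110 other pathway genes, 54 were higher and 23 lower in the hepatocyte-poor spots at 48 h. Their median was 0.25, against 0.03 over all genes, of which 33.1% were higher and 30.5% lower.

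Spots rich in phagocyte transcripts (Lyz2, Csf1r, Cd68 and Cd5l) also held more Oasl2, here from 24 h on. It was at 13.0 and 9.72 CPM in phagocyte-rich and 6.34 and 4.51 CPM in other spots at 24 h (1.06, adjusted p = 3.51e-05), at 14.7 and 21.7 against 6.60 and 12.9 CPM at 36 h (0.91, adjusted p = 1.27e-05), and at 18.5, 18.2, 20.4 and 26.2 against 6.47, 7.02, 8.87 and 11.3 CPM at 48 h (1.32, adjusted p = 4.19e-17). At 0 h it was at 6.80, 8.42 and 14.6 CPM against 5.92, 8.42 and 8.65 CPM and was not called (0.32, adjusted p = 0.343), nor was any other member, beside 1.59% of genes (1.1% higher and 0.492% lower). In that comparison Irf7 had an unadjusted p under 0.05 with 0.24 (adjusted p = 0.0530), as had Ifi27 with −0.14, and scores from unthinned counts gave 3 members called. Of all genes, 27.6% were called at 24 h (11.1% up, 16.5% down) and 29.1% at 36 h (13.3% up, 15.8% down), with Bst2 and Ifi27 called lower at 24 h (−0.24 and −0.28) and Ifi27 at 36 h (−0.46), but under total-count scaling Bst2 turned to 0.024 and Ifi27 lost both calls (−0.017 with adjusted p = 0.904 at 24 h, −0.15 with adjusted p = 0.116 at 36 h). Without 24 h B the calls of Bst2 and Ifi27 at 24 h were lost (adjusted p = 0.122 and 0.0610), and without 24 h A that of Ifi27 (adjusted p = 0.0571), while Oasl2 kept its call without any 1 section at each of the 3 times. At 48 h Gbp2 (0.61), Ifit3 (0.54), Isg15 (0.22) and Irf7 (0.19) were higher as well, and Ifi27 (−0.50) and Bst2 (−0.19) lower, with Bst2 at 0.24 and Ifi27 at −0.069 (adjusted p = 0.210, not called) under total-count scaling, beside 63.9% of genes (33% higher and 30.9% lower). Isg15 there gave 0.03 (adjusted p = 0.739) without 48 h A and lost its call in 6 other such runs, and Irf7 gave 0.12 (adjusted p = 0.0757) without 48 h D.

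Distance from the hepatocyte-poor spots was counted in steps on the hexagonal grid, with levels as raw CPM, UMIs per 1000000 of the total without TMM. At 48 h Oasl2 ran at 26.4, 9.25, 4.30 and 5.74 raw CPM at 0, 1, 2 and at least 3 steps in section A. In section D it ran at 36.1, 14.9, 9.48 and 9.85 raw CPM. Sections B and C gave 23.7 and 32.1 at 0 steps, 9.73 and 12.5 at 1 step and 7.81 and 6.87 at 3 or more, so the excess had fallen most of the way within 1 step in all 4. Isg15 went from 75.3 to 43.4, 28.1 and 27.1 raw CPM in 48 h A and from 115 to 72.7, 55.4 and 57.3 in 36 h A, but in 48 h B it came back from 55.9 at 2 steps to 78.1 at 3 or more. Ifit3 at 48 h stood at 18.3 to 33.4 raw CPM at 0 steps and 7.0 to 21.9 at 3 or more, and Gbp2 at 10.8 to 19.0 and 3.09 to 7.12, each lower at the greater distance in 4 of 4 sections. At 0 h Isg15 was lower at 0 steps than at 3 or more in each section, at 26.6 to 42.3 against 31.9 to 54.2 raw CPM. Oasl2 at 0 h lay at 2.52 to 7.88 and 4.63 to 7.16 raw CPM, higher at 0 steps in 1 of 3 sections. On this total-count scale the median gene is itself raised in hepatocyte-poor spots, by 0.49 on the log2 scale at 48 h.

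**Figure D4:**
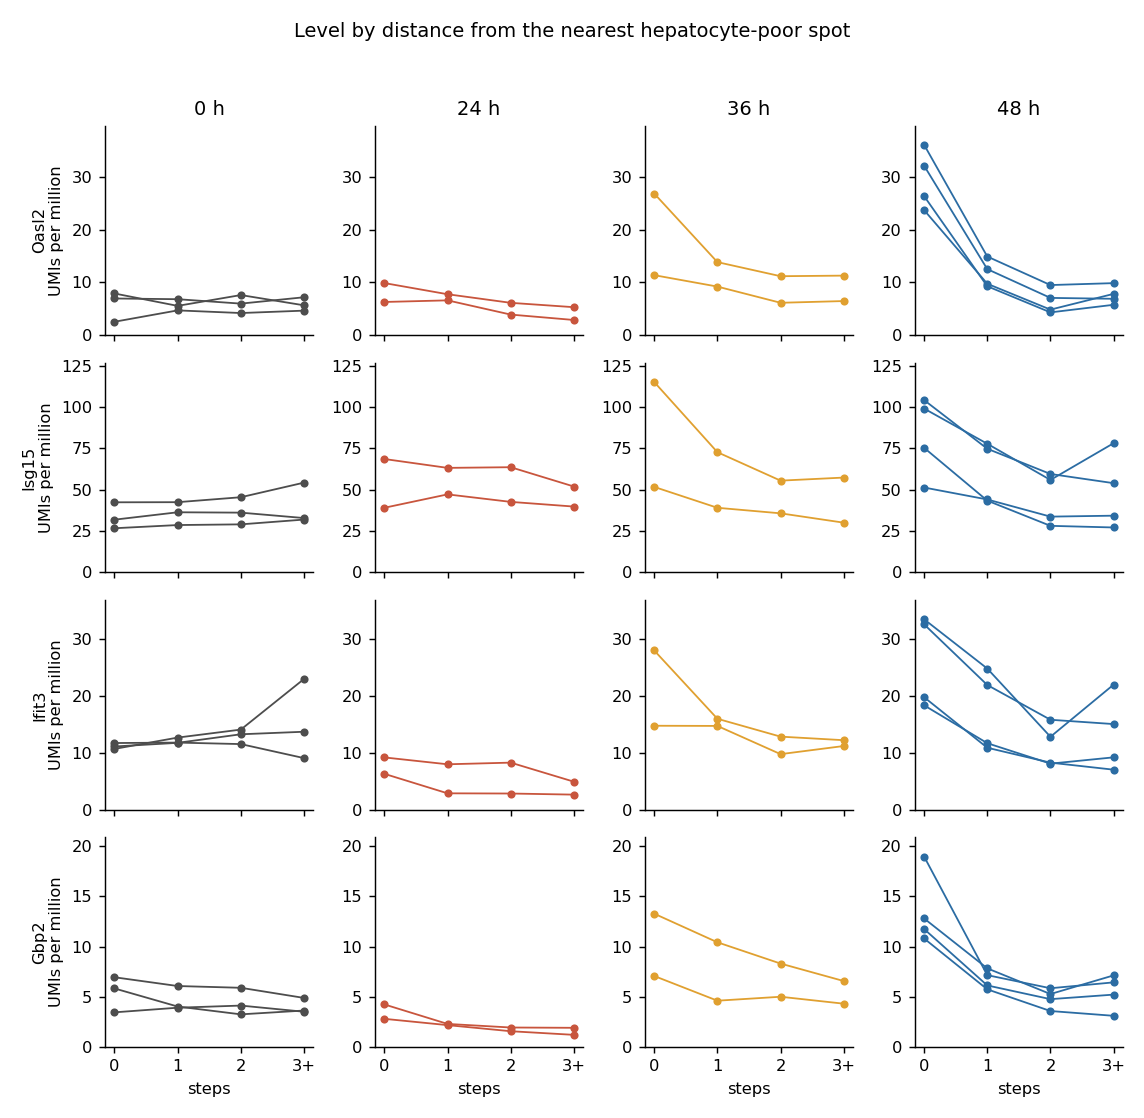
Raw CPM, UMIs per 1000000 of the total (y axis, from 0) of Oasl2, Isg15, Ifit3 and Gbp2 by distance from the nearest hepatocyte-poor spot in grid steps (x axis), in columns by time. Each line is a section. Oasl2 falls from 23.7 to 36.1 raw CPM at 0 steps to 9.25 to 14.9 at 1 step in the 4 sections at 48 h, and stays at or below 7.88 raw CPM at every distance at 0 h.

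Spots were thinned to 5000 UMIs and called interferon-rich when at least 3 of Isg15, Ifit1, Ifit3, Irf7 and Oasl2 had a UMI. The share of such spots also rises with the level of each gene alone, so it cannot tell whether the members met in the same places. The shares were 0.570%, 1.13% and 1.26% at 0 h, 0.914% and 0.557% at 24 h, 1.67% and 1.30% at 36 h, and 0.838%, 1.61%, 1.18% and 2.37% at 48 h. Injured and uninjured sections overlapped. Their means of 1.30% and 0.986% differed by 0.319 percentage points (two-sided exact permutation test, p = 0.388, smallest possible 0.0121), and the sign turned when spots were thinned to 2000 UMIs (−0.0549 points, exact permutation p = 0.545). With 2 of the 5 genes required, the means were 10.4% and 7.26%, a difference of 3.15 points (exact permutation p = 0.0727). Within sections the interferon-rich spots were unevenly placed. At 48 h they made up 3.59%, 5.37%, 4.31% and 5.83% of hepatocyte-poor spots and 0.532%, 1.19%, 0.828% and 1.99% of the others, higher in 4 of 4 sections. At 36 h the shares were 4.69% and 4.0% against 1.33% and 1.0%. At 0 h they were 1.55%, 1.51% and 1.45% against 0.461%, 1.09% and 1.24%. The hepatocyte-poor shares rest on 8 to 14 interferon-rich spots per section at 48 h, 9 and 8 at 36 h, and 3 to 4 at 0 h. Thinning sets a common total, so these shares are on the total-count scale. There the median gene lay 0.07, 0.33 and 0.49 higher in hepatocyte-poor spots at 0 h, 36 h and 48 h on the log2 scale. Its part in the uneven placing was not tested.

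Neighbouring spots held like values of Ifit1 in uninjured liver. Moran's I is 0 for a random layout and rises when neighbouring spots have like values. For Ifit1 it was 0.140, 0.157 and 0.0997 in the 3 sections at 0 h. This was above 97.5% to 98.4% of the 5967 to 6113 genes compared in each section. The genes compared all had a UMI in a larger share of thinned spots than Ifit1 did at 0 h (2.64% to 3.72%), so its rank is against denser genes. In the 8 injured sections the value for Ifit1 ran from −0.0106 to 0.0397. Ifit1 had a UMI in 51 to 77 thinned spots per section at 0 h and in 14 to 67 after injury. The part of this sparseness in the lower values was not tested. Ifit3 gave 0.0838, 0.0906 and 0.0985 at 0 h, 0.0603 and 0.0644 at 24 h, and 0.152 in 48 h B, with the other 5 injured sections between 0.00767 and 0.0427. Isg15 gave 0.0545 to 0.0668 at 0 h and −0.00482 to 0.0801 after injury. For comparison, the median of the genes compared in a section lay between 0.00415 and 0.00872. At 0 h Oasl2, Irf1 and Irf7 lay at or below 0.0306, and Ifi27 and Bst2 at or below 0.0351. Gbp2 gave −0.0213, 0.000416 and 0.0962 in 0 h sections 2, 3 and 4, the last close to the value of Ifit1 in that section. Spots next to an interferon-rich spot were themselves interferon-rich in 11.8% to 15.4% of cases at 0 h, against 0.523% to 1.15% next to other spots. Those shares were 5.97% and 3.92% at 24 h, 2.20% and 6.54% at 36 h, and 3.68%, 13.9%, 1.2% and 10.3% at 48 h, against 0.541% to 2.20% next to other spots. The 0 h shares rest on 11, 30 and 26 interferon-rich spots in sections 2, 3 and 4, of which 6, 17 and 15 had no interferon-rich neighbour. All these values are descriptions over spots of a section, with no test between times. The largest run of adjoining interferon-rich spots held 6 spots, in 0 h section 4.

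**Figure D5:**
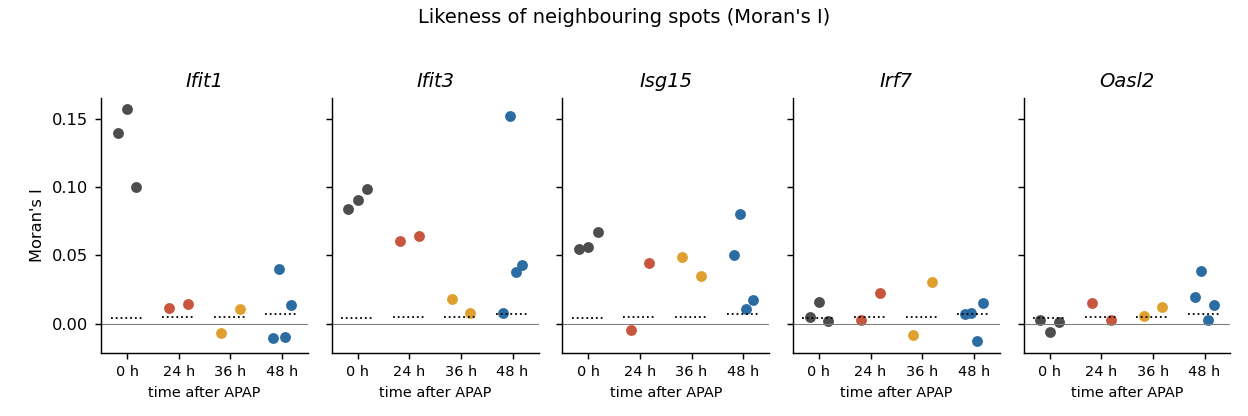
Moran's I over neighbouring spots (y axis) for 5 members by time after APAP (x axis). Each point is a section, and dotted lines are the median over the genes compared. Ifit1 lies between 0.0997 and 0.157 in the 3 sections at 0 h and at or below 0.0397 in the 8 injured sections.

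Single spots carried few molecules of most members. After thinning, Bst2 had a UMI in 71.5% to 93.9% of spots over the 11 sections, Ifi27 in 43.3% to 67.4%, Irf7 in 18.2% to 32.1%, Isg15 in 12.4% to 28.5%, Irf1 in 5.65% to 12.5%, Ifit3 in 1.49% to 8.78%, Oasl2 in 2.02% to 6.91%, Gbp2 in 0.954% to 4.05% and Ifit1 in 0.866% to 3.72%. Correlations between members across the spots of a section were weak, and spots share their section and its depth. The highest median over sections was 0.103, for Isg15 and Ifit3, and the highest single value was 0.325, for Ifit1 and Ifit3 in 48 h B, the section with the high Moran's I of Ifit3.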

How the data were processed

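Per the labels and the study's methods, RNA of fresh-frozen mouse liver sections was captured on Visium slides, and the authors deposited raw UMI counts per gene and spot, made with Space Ranger 1.0.0 on mm10 per the submitters' processing notes, which also name Seurat 4.1.1. The deposited counts cover 31053 genes and 4992 spots per section and were not normalised. Spots under tissue needed at least 800 genes, with mitochondrial UMIs at 20% or less, and their counts were summed per section. Sums of all 11 sections were tested in 1 model with edgeR 4.0.16 (R 4.3.3, limma 3.58.1; TMM, filterByExpr, robust quasi-likelihood test), with Benjamini-Hochberg adjustment over all genes tested and a threshold of 0.05. SEs come from the same fit.

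For spot classes, spots were thinned to 5000 UMIs and scored by the mean natural log of 1 plus UMIs scaled to 10000. Unthinned counts were summed per class (25% of spots each for central and portal, 10% for the others) and tested with the section as block, at each time and for the difference from 0 h. A spot is a small region of several cells, so no doublet caller was run. Shares of interferon-rich spots were compared by exact permutation of the 165 groupings of sections. Python 3.11.15, numpy 2.4.6, scipy 1.17.1, pandas 2.3.3 and matplotlib 3.10.9 were used. Gene positions are GENCODE on GRCm38, the build of the files, and promoter sequences are RefSeq on GRCm38.p6. The tests across genes were tested on simulated data. Alternatives were total-count and RLE scaling, DESeq2 1.42.0, no filter on low counts, all spots under tissue, only the groups compared, a replicate block, wider classes, unthinned scores, and leaving out each section.

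The members and lists were chosen with earlier results of these data known. Named were all members, each ligand, the main receptors, Stat2, Irf9, Usp18, Socs1, Socs3, near copies of members, and per comparison the 3 largest rises and falls of the pathway list with a mean of at least 1 CPM. Ddx58, Ifih1, Ifnlr1, the full list of gamma targets lower at 24 h, and values of Il10rb, Tlr4, Oas1g and H2-K1 outside that rule were added after their values were seen. Counting could split reads between near copies (Ifit3 and Ifit3b, Gbp2 and Gbp2b, Oasl2 and Oasl1), so these are uncertain. Slide, mouse and run of a section were not used here, since the labels do not give them. The result of 1 signalling gene is not reported here.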

Additional observations from a re-analysis of the deposited data

Results flagged for a closer look

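The effect of place on a member was compared between each injured time and 0 h within edgeR's quasi-likelihood model, and 19 of 81 tested differences passed (Benjamini-Hochberg adjusted over all genes). Over all genes the share that passed was 15.2%, 10.7% and 20.1% for central against portal spots at 24 h, 36 h and 48 h, 13.6%, 16.1% and 37.2% for hepatocyte-poor spots, and 10.8%, 13.8% and 35.6% for phagocyte-rich spots. All values are differences of log2 fold changes, with the effect at 0 h and at the later time, on the TMM scale. The differences were not tested under total-count scaling. Each class is a fixed share of the spots of a section, so it need not hold the same kind of spot at both times.

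In hepatocyte-poor spots at 48 h, Oasl2 differed by 1.47 (adjusted p = 4.30e-08, from −0.12 to 1.35), Ifit3 by 0.85 (adjusted p = 0.000133, from −0.38 to 0.48), Gbp2 by 0.62 (adjusted p = 0.0232, from 0.20 to 0.82), Isg15 by 0.56 (adjusted p = 0.0214, from −0.29 to 0.27), Irf7 by 0.45 (adjusted p = 0.000775, from −0.30 to 0.15) and Ifi27 by −0.29 (adjusted p = 0.00717, from −0.23 to −0.51). Under total-count scaling Ifi27 gave −0.097 at 0 h and −0.051 at 48 h, so that its difference turned sign. At 36 h, Ifit1 differed by 1.0 (adjusted p = 0.0101, from −0.32 to 0.69), Ifit3 by 0.75 (adjusted p = 0.0183, from −0.38 to 0.37), Oasl2 by 0.74 (adjusted p = 0.0332, from −0.12 to 0.62) and Isg15 by 0.69 (adjusted p = 0.0414, from −0.29 to 0.40).

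In phagocyte-rich spots Oasl2 differed by 0.73 at 24 h (adjusted p = 0.0452, from 0.32 to 1.06) and by 0.99 at 48 h (adjusted p = 1.05e-05, from 0.32 to 1.32). Ifit3 differed by 0.41 at 48 h (adjusted p = 0.0259, from 0.13 to 0.54). Ifi27 differed by −0.32 at 36 h (adjusted p = 0.0204, from −0.14 to −0.46) and by −0.36 at 48 h (adjusted p = 0.000307, from −0.14 to −0.50), and Irf7 by −0.32 at 36 h (adjusted p = 0.0360, from 0.24 to −0.08). Under total-count scaling Ifi27 gave −0.15 at 36 h and −0.069 at 48 h, and Irf7 0.24 at 36 h.

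Between central and portal spots Ifi27 differed by −0.37 at 24 h (adjusted p = 0.00491, from −0.02 to −0.39) and by −0.35 at 36 h (adjusted p = 0.0108, from −0.02 to −0.38), and Bst2 by −0.16 at 48 h (adjusted p = 0.0487, from 0.02 to −0.14). Under total-count scaling the later values were −0.14 and −0.19 for Ifi27 and 0.066 for Bst2.

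Of 46 groups of 4 sections tested for a section far from the rest, 1 had one, where chance gives about 1 in 20. The log2 ratio of Gbp2 in central over portal spots was −0.066 in 48 h C and 0.57 to 0.66 in the other 3 sections at 48 h.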

How the results depend on the processing

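Of 8 calls over sections, all 8 kept direction and call under DESeq2, RLE scaling and all spots under tissue, 7 without a filter on low counts, and 6 under total-count scaling and with only the groups compared. Leaving out each section in turn kept these calls 61 times and lost them 27 times, and kept the 39 calls in spot classes 385 times and lost them 44 times. Total-count scaling kept 19 of the 39, wider classes 35 and unthinned scores 36. It turned the direction of Irf7 at 48 h against 0 h (0.27), of Irf7 and Bst2 in central spots at 48 h (0.038 and 0.066) and Bst2 at 24 h (0.22), of Irf7 and Bst2 in hepatocyte-poor spots at 36 h (0.25 and 0.19) and Bst2 at 48 h (0.22), and in phagocyte-rich spots of Bst2 at 24 h, 36 h and 48 h (0.024, 0.18 and 0.24) and Irf7 at 24 h and 36 h (0.24 and 0.24). It gave 3 members called at 36 h against 0 h, 1 in central spots at 24 h, 0 and 7 in hepatocyte-poor spots at 0 h and 36 h, and 1 and 6 in phagocyte-rich spots at 0 h and 36 h. Wider classes gave 0 in hepatocyte-poor and unthinned scores 3 in phagocyte-rich spots at 0 h. At 36 h against 24 h DESeq2 called 3 members and the 2 groups alone 0, and at 48 h against 36 h the 2 groups alone 0. At 2000 UMIs the difference in interferon-rich spots was −0.0549 points. The cause of these shifts was not tested. In these data the median gene lay higher under total-count scaling than under TMM in every comparison with 0 h.

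Leaving out 1 section gave 1 to 3 members at 24 h, 0 to 1 at 36 h and 0 to 4 at 48 h against 0 h, 0 to 2 at 36 h against 24 h, and 0 to 1 at 48 h against 36 h. The ranges from 0 h to 48 h were 1 to 1, 2 to 2, 1 to 3 and 3 to 7 in central, 0 to 3, 2 to 4, 2 to 5 and 5 to 7 in hepatocyte-poor, and 0 to 1, 1 to 3, 2 to 3 and 5 to 7 in phagocyte-rich spots. For interferon-rich spots it was 0.111 to 0.454 points. Where 1 section remained in a group, it was assumed to vary like the others.

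The letters A and B are shared by 24 h, 36 h and 48 h, and the labels do not say what they mean. Deviations of same-lettered sections correlated at −0.27 to 0.43. At 24 h and 36 h the 2 sections of a time deviate as mirror images. The values therefore cannot tell whether a letter marks a shared slide or run. With the letter as a replicate block, 0 members were called at 36 h against 24 h (Gbp2 1.61, adjusted p = 0.0777) and 0 at 48 h against 36 h (Irf7 −0.59, adjusted p = 0.436). Depth limits Ifit1 and Gbp2 most, with 216 and 159 UMIs at 24 h.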
